A study of Equus caballus with 23 samples.

Results

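Very long genes were defined here as protein-coding genes with a symbol whose annotated start and end lie at least 300 kb apart on the chromosome. By that rule 119 genes were found among 8839 annotated protein-coding genes with a symbol, and the count table held 26991 genes in all. Their transcripts were measured by RNA sequencing of the gluteus medius, the large propulsive muscle of the hindquarter, in 23 libraries from Arabian horses. The study followed flat-race training, so its comparisons ask how the muscle transcriptome differs between training stages. T0 held 5 libraries from untrained horses aged 2.5 years (3 male, 2 female). T1 held 8 libraries from 3-year-old horses sampled after the intense gallop phase and before the season (4 male, 4 female). T2 held 10 libraries from 3-year-old horses at the end of the racing season (7 male, 3 female). All horses were Arabians, and no drug or genetic change separated the time points. Whether the same horse gave libraries at several stages is not stated in the labels, and p-values describe the variation among these 23 libraries. The 2.5-year age occurred in T0 alone, and age and training therefore cannot be told apart in comparisons with T0.

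A very long gene is mostly intron. Its polymerase must cross the whole span before a full transcript is released, and the long introns are removed by splicing on the way. In striated muscle such genes encode large membrane and cytoskeletal linkers, calcium channels and their auxiliary subunits, kinases and their anchors, and vesicle-tethering proteins. Many of them are also used by neurons, where they serve adhesion and synapse assembly.

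Library totals were 12604125 to 17477172 counts at T0, 15417737 to 23641809 counts at T1 and 12185608 to 19804694 counts at T2. Mitochondrial chromosome genes took 36.0% to 54.9% of counts in T0, 44.7% to 56.7% in T1 and 42.5% to 52.3% in T2. Of 16 slow-fibre marker genes tested, 15 were higher and 0 lower in T1 than in T0, and 0 were higher and 13 lower in T2 than in T1. Of 14 fast-fibre identifiers tested, 0 were higher and 5 lower in T1 than in T0, and 11 were higher and 0 lower in T2 than in T1. MYH1, MYH4 and PVALB of the fast-fibre list were not among the annotated genes tested, so its counts and sums leave them out. Summed slow-fibre markers made up 10900 to 39600 CPM (counts scaled to a common library size) in T0, 36300 to 150000 CPM in T1 and 14200 to 51900 CPM in T2. Summed fast-fibre markers made up 54400 to 119000 CPM in T0, 5250 to 60200 CPM in T1 and 55100 to 130000 CPM in T2. The T1 library m3 stood apart, with the most slow-fibre and the least fast-fibre marker RNA of all 23. In tissue samples such as these, fewer cells of a type and less RNA per cell cannot be told apart.

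The 119 very long genes lay on 32 chromosomes, or unplaced sequence, 10 of them on chromosome 1. Their spans ran from 304 to 1140 kb, with a median of 405 kb. The longest as annotated were DUSP8 (ENSECAG00000020705, chromosome 12, 31534226 to 32674266), a MAP kinase phosphatase, PARD3B (ENSECAG00000008768, chromosome 18, 79106315 to 80034010), a cell polarity protein, and CDH13 (ENSECAG00000021162, chromosome 3, 30386191 to 31158287), a cadherin without a cytoplasmic domain. Positions are those of the deposited annotation, for which the sources used here name no genome build. DUSP8, FAM117A and OGFR are short genes in other mammals, and their annotated spans here were not checked against another build. For 71 of the 119 the annotation listed 1 transcript. At least 13 shared bases with another annotated gene, so reads there could not be assigned with certainty. Overlaps with genes of the count table outside that annotation could not be seen. Just inside the limit lay SPATA5 (303.8 kb), THADA (305.3 kb) and RALGAPA2 (305.5 kb), and just outside it lay UVRAG (297.2 kb), DIS3L2 (297.4 kb) and APBB2 (299.9 kb). The T2 minus T1 log2 fold changes were 0.01, -0.40 and -0.89 for the first 3 and -0.20, 0.15 and 0.01 for the other 3. All 119 passed the filter on low counts, as did all 8839 annotated protein-coding genes with a symbol. The annotation covers 9628 genes, and very long genes absent from it were not considered. The median over these genes of the mean log2 CPM was 2.73, against 3.05 for the 8720 shorter genes.

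Between the end of the season and the gallop phase, the very long genes as a group were shifted downward. In T2 against T1, 44 of the 119 were lower (37.0%) and 3 were higher (2.52%), at an adjusted p below 0.05 from edgeR's quasi-likelihood test with Benjamini-Hochberg adjustment over all 11545 genes tested. Over all genes tested, 15.1% were lower and 12.6% higher. In either direction 47 of the 119 were called, against 27.6% of all genes tested, and the other 72 did not pass. The median log2 fold change was -0.27 over the 119, against 0.01 over the 8720 shorter genes and -0.01 over all genes tested. The log2 fold change was negative for 90 of the 119 (75.6%), against 49.2% of the shorter genes. For 12 very long genes (10.1%) every T2 library lay below every T1 library in log2 CPM, against 1.45% of all genes tested.

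The shift was graded with annotated span. Transcript lengths were not used, and the cause of the gradient was not tested. In T2 against T1, the share of genes called lower was 37.0% at 300 kb or more, 30.4% between 100 and 300 kb, 22.6% between 30 and 100 kb, 11.8% between 10 and 30 kb and 7.65% under 10 kb. The share called higher ran the other way, at 2.52%, 7.71%, 10.6%, 16.1% and 17.7% over the same classes. Genes were also split by mean expression into 3 classes of equal size. Lower were 14 of 45 very long genes of the low class (31.1%), 18 of 41 of the middle class (43.9%) and 12 of 33 of the high class (36.4%). In the same order the shares were 25.3%, 32.4% and 33.5% between 100 and 300 kb and 17.4%, 27.3% and 22.1% between 30 and 100 kb. They were 11.5%, 12.9% and 11.1% between 10 and 30 kb and 7.61%, 7.91% and 7.47% under 10 kb. Spearman's rho between span and log2 fold change was -0.24 over 8839 genes, and -0.09 over the 119 very long genes alone. Both values describe genes in the same libraries, and genes are not independent replicates. Among the 119, 20 of the 59 above the median span and 24 of the 60 at or below it were lower.

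**Figure D1:**
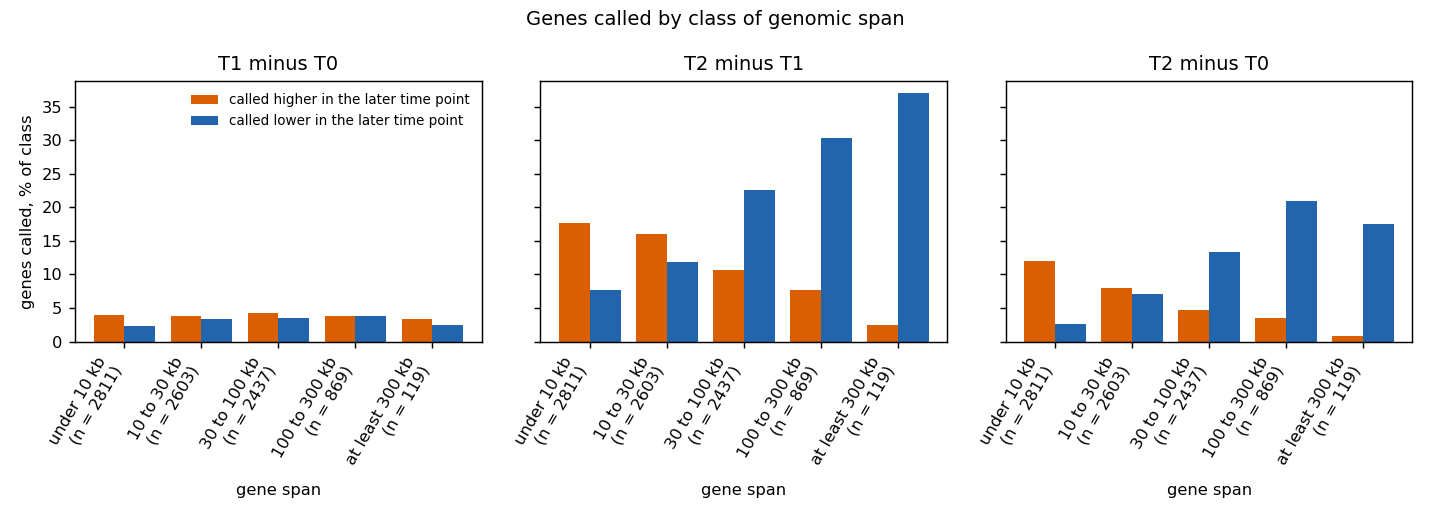
Percentage of genes called higher (orange) and lower (blue) in the later time point, by class of genomic span, in the 3 comparisons. In T2 minus T1 the blue bars climb to 37.0% at 300 kb or more while the orange bars shrink to 2.52%, and in T1 minus T0 all bars stay at or under 4.27%.

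Per library, the mean log2 CPM of the very long genes minus that of the shorter genes gave a level for each sample. In T0 it lay between -0.42 and -0.25 with a median of -0.31. In T1 it lay between -0.51 and -0.19 with a median of -0.26, and in T2 between -0.75 and -0.46 with a median of -0.55. The lowest T1 library was m3. The other 7 T1 libraries lay at -0.33 or above, higher than every T2 library, and all 5 T0 libraries also lay above every T2 library. Library m3 was also the highest in slow-fibre markers. Summed slow-fibre markers were 14200 to 51900 CPM in T2 and 36300 to 150000 CPM in T1, so these 2 ranges overlapped. The slow minus fast fibre score is the mean log2 CPM of slow-fibre markers minus that of fast-fibre markers. That score did not overlap between T1 (-2.06 to 3.63) and T2 (-4.47 to -2.17), and was -5.12 to -3.31 in T0. The part of fibre composition in the level of the very long genes was not tested. The very long genes together held 1556 to 1817 CPM in T2, against 1845 to 2151 CPM in T1 and 1731 to 2193 CPM in T0.

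**Figure D2:**
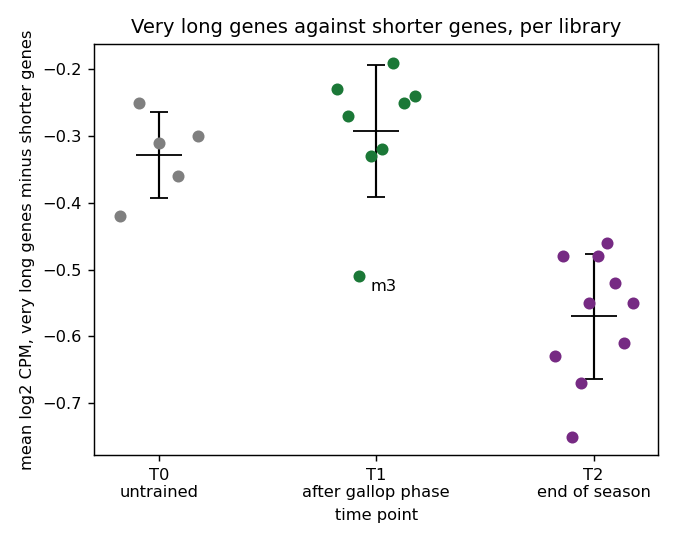
Mean log2 CPM of the 119 very long genes minus that of the 8720 shorter genes, one point per library at T0, T1 and T2, with bars for the mean and SD. The T2 points lie at -0.46 and below, and m3, at -0.51, is the T1 point among them.

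Depth and mitochondrial share differed between T2 and T1 as well, and fits that took each away were made after the data had been seen. With counts thinned to the smallest library total, 45 very long genes were lower and 4 higher in T2 than in T1. Of all genes tested in that fit, 14.2% were lower and 11.5% higher. With mitochondrial chromosome genes left out, 43 were lower and 3 higher, against 14.5% lower and 13.1% higher of all genes tested. Without library m3, 50 were lower and 7 higher, against 16.7% lower and 16.1% higher of all genes tested. The part of fibre composition in the T2 minus T1 shift was not tested.

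In T2 minus T1, signalling genes held the largest group of falls among the very long genes. Of 12 very long genes for growth factor, kinase, phosphatase and cyclic nucleotide signalling, 8 were lower in T2 than in T1, 0 were higher, and the median log2 fold change was -0.61. Among the 130 shorter genes of the same list, 39 were lower and 10 higher, with a median of -0.18. PRKG1 (ENSECAG00000014017, chromosome 1, 42400353 to 42839102) encodes the cGMP-dependent protein kinase that relays nitric oxide signals. PRKG1 was at 8.40, 7.88, 5.42, 6.47 and 4.50 CPM in the 5 T0 libraries, at 14.7, 16.3 and 21.3 CPM in T1 (lowest, median, highest) and at 1.36, 4.16 and 7.10 CPM in T2. Every T1 library was above every T0 and every T2 library. Its log2 fold change was -1.92 ± 0.20 in T2 minus T1 (SE, adjusted p = 3.39e-06, edgeR) and 1.40 ± 0.25 in T1 minus T0 (adjusted p = 0.00228). PRKG1 is also abundant in smooth muscle. Of 7 smooth muscle and pericyte markers tested, 1 was higher and 1 lower in T2 than in T1, and 0 were higher and 1 lower in T1 than in T0. Their summed level was 96.4 to 226 CPM in T2, against 84.0 to 153 CPM in T1, and their part in the PRKG1 values was not tested.

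AKAP6, which anchors protein kinase A at the nuclear envelope and sarcoplasmic reticulum of muscle cells, was at 44.7, 59.7, 51.3, 37.5 and 54.9 CPM in T0, at 53.1, 62.2 and 79.0 CPM in T1 and at 21.1, 34.2 and 41.0 CPM in T2. T2 libraries lay wholly below T1 libraries and overlapped T0 at its lower end. The log2 fold change of AKAP6 was -0.98 ± 0.12 in T2 minus T1 (adjusted p = 7.39e-06) and -0.61 ± 0.13 in T2 minus T0 (adjusted p = 0.00583, edgeR). TNIK, a kinase of the Wnt and JNK pathways, was at 22.5, 22.3, 31.0, 19.5 and 15.6 CPM in T0, at 31.7, 39.1 and 47.0 CPM in T1 and at 15.7, 20.1 and 28.8 CPM in T2. T1 was high and stood clear of both other time points. The TNIK log2 fold change was -0.90 ± 0.12 in T2 minus T1 (adjusted p = 1.28e-05).

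CDC42BPA, a kinase that acts on the actomyosin cytoskeleton downstream of CDC42, was at 8.10, 15.2 and 20 CPM in T2, against 14.6, 24.4 and 26.1 CPM in T1 (-0.67 ± 0.14, adjusted p = 0.00109, edgeR). The overlap came from m3, the lowest T1 library for this gene. ADCY2, an adenylyl cyclase, changed by -0.38 ± 0.13 (adjusted p = 0.0328, edgeR). ADCY2 was at 70.5, 101 and 162 CPM in T2, against 124, 133 and 150 CPM in T1. The time points overlapped, and T2 library m23 (162 CPM) lay above every T1 library. INPP4B, a phosphoinositide phosphatase, fell by 0.83 (adjusted p = 0.00822), BMPR1B, a BMP receptor, by 0.61 (adjusted p = 0.0251), and RPTOR, the raptor subunit of mTORC1, by 0.60 (adjusted p = 0.00771). Among those of the list that did not pass, PRKCA, FAF1 and MAP2K5 had log2 fold changes of -0.12, 0.31 and 0.24.

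**Figure D3:**
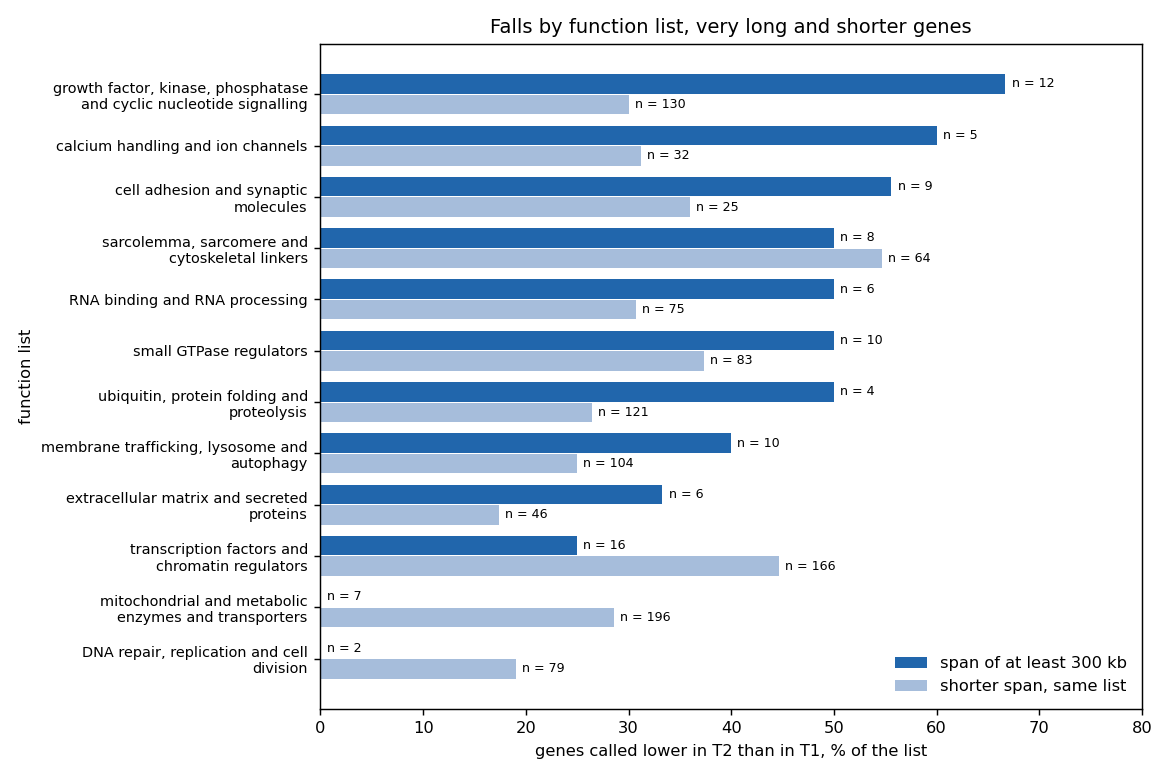
Share of genes called lower in T2 than in T1 in each of 12 function lists, for very long genes (dark) and shorter genes (light) of the same list, with the number of genes beside each bar. Signalling shows 66.7% against 30%, whereas transcription and chromatin regulators show 25% against 44.6% and metabolic enzymes, without VWA8, 0 of 7 against 28.6%.

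At the cell surface, 5 of 9 very long genes for adhesion and synaptic molecules were lower in T2 than in T1 and 0 were higher, against 9 lower and 0 higher of 25 shorter genes. TENM3, a teneurin that guides cell contacts, was at 5.12, 5.89, 3.74, 5.51 and 4.05 CPM in T0, at 5.75, 7.96 and 9.72 CPM in T1 and at 1.68, 4.07 and 5.33 CPM in T2. Every T2 library was below every T1 library, and T2 overlapped T0. The TENM3 log2 fold change was -1.0 ± 0.18 in T2 minus T1 (adjusted p = 0.000245, edgeR). ERC1, a scaffold of the active zone and of cortical secretion sites, was at 4.75, 6.84, 6.79, 5.62 and 8.15 CPM in T0, at 3.68, 6.34 and 6.61 CPM in T1 and at 1.2, 3.23 and 3.90 CPM in T2. Library m3 was the T1 library that reached into the T2 range, and T2 and T0 did not overlap. ERC1 changed by -0.99 ± 0.17 in T2 minus T1 (adjusted p = 0.000199) and by -1.09 ± 0.19 in T2 minus T0 (adjusted p = 0.00161). PARD3B and the receptor tyrosine phosphatases PTPRK and PTPRM also fell, by 0.56, 0.42 and 0.30 on the log2 scale. GPHN, PARD3, ADGRL3 and CDH13 did not pass, at -0.07, -0.04, -0.03 and -0.15.

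Among 8 very long genes for sarcolemmal, sarcomeric and cytoskeletal linkers, 4 were lower and 1 was higher in T2 than in T1. The 64 shorter genes of this list had a similar share of falls, with 35 lower and 2 higher. CTNNA3, the alpha-T-catenin that links cadherins to actin in striated muscle, was at 1.11, 1.90, 3.26, 2.33 and 1.91 CPM in T0, at 1.89, 2.58 and 3.11 CPM in T1 and at 0.838, 1.10 and 1.43 CPM in T2. T2 was wholly below T1 and met T0 at 1 low T0 library. CTNNA3 changed by -1.20 ± 0.18 in T2 minus T1 (adjusted p = 5.33e-05, edgeR) and by -0.94 ± 0.21 in T2 minus T0 (adjusted p = 0.006). UTRN encodes utrophin, the close relative of dystrophin that is enriched at neuromuscular junctions. UTRN was at 27.9, 22.7, 21.8, 18.4 and 19.1 CPM in T0, at 11.9, 19.1 and 24.9 CPM in T1 and at 5.61, 9.53 and 16.9 CPM in T2. T2 lay wholly below T0, and m3 was the T1 library that reached into the T2 range. Its log2 fold change was -0.96 ± 0.18 in T2 minus T1 (adjusted p = 0.000358) and -1.13 ± 0.20 in T2 minus T0 (adjusted p = 0.00161). PALLD, which organises actin bundles, fell by 0.49 and DST, the cytolinker dystonin, by 0.36. SYNE1, the nuclear envelope linker nesprin-1, MAST4, a microtubule-associated kinase, and LARGE, a glycosyltransferase acting on dystroglycan, had T2 minus T1 values of -0.11, -0.03 and -0.32 and did not pass. SGCD, the member that rose, is described with the genes against the trend.

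Of 5 very long genes for calcium handling and ion channels, 3 were lower and 0 higher in T2 than in T1, against 10 lower and 2 higher of 32 shorter genes. CACNA2D1, the alpha-2-delta subunit of the voltage-gated calcium channel that triggers contraction, was at 40.5, 50.3, 46.3, 57.6 and 55.4 CPM in T0, at 40.5, 54.2 and 61.3 CPM in T1 and at 17.6, 31.8 and 37.1 CPM in T2. Every T2 library was below every library of both other time points. CACNA2D1 changed by -0.83 ± 0.13 in T2 minus T1 (adjusted p = 6.8e-05, edgeR) and by -0.76 ± 0.15 in T2 minus T0 (adjusted p = 0.0031). ITPR2, an inositol trisphosphate receptor that releases stored calcium, was at 13.3, 8.03, 8.0, 7.74 and 11.5 CPM in T0, at 6.22, 7.94 and 10 CPM in T1 and at 2.65, 5.11 and 6.65 CPM in T2. T2 lay wholly below T0 and touched the lowest T1 values. ITPR2 changed by -0.74 ± 0.17 in T2 minus T1 (adjusted p = 0.00209) and by -1.0 ± 0.19 in T2 minus T0 (adjusted p = 0.00282). KCNMA1, the large-conductance calcium-activated potassium channel, was at 0.697, 1.10 and 3.00 CPM in T2, against 1.72, 2.75 and 7.36 CPM in T1 (-1.38 ± 0.32, adjusted p = 0.00292, edgeR). The highest T1 values were those of m3 (7.36 CPM) and m11 (6.50 CPM), ahead of m2 (3.53 CPM), and T2 overlapped T1. RYR2, the ryanodine receptor best known from heart, did not pass at -0.39 ± 0.24, nor did CAMTA1, a calmodulin-binding transcription activator, at 0.32 ± 0.19.

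Very long regulators of small GTPases were lower in 5 of 10 cases and higher in 0, against 31 lower and 1 higher of 83 shorter ones. RALGAPA2, a subunit of the complex that inactivates Ral GTPases, was at 7.70, 9.69, 7.16, 8.06 and 11.8 CPM in T0, at 4.29, 9.47 and 10.8 CPM in T1 and at 2.73, 5.06 and 6.34 CPM in T2. Library m3 was the T1 library within the T2 range, and T2 did not reach the T0 range. RALGAPA2 changed by -0.89 ± 0.16 in T2 minus T1 (adjusted p = 0.000367, edgeR) and by -0.85 ± 0.19 in T2 minus T0 (adjusted p = 0.00583). RASAL2, a Ras GTPase-activating protein, changed by -0.87 ± 0.16 in T2 minus T1 (adjusted p = 0.00038). ARHGAP24, AGAP1 and the exchange factor KALRN fell by 0.56, 0.50 and 0.43.

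Membrane trafficking genes were lower in 4 of 10 cases and higher in 1, against 26 lower and 9 higher of 104 shorter genes. VPS13B, a large lipid-transfer protein of the Golgi, was at 9.66, 7.55, 8.84, 7.10 and 9.90 CPM in T0, at 7.33, 9.10 and 11 CPM in T1 and at 3.05, 3.99 and 6.80 CPM in T2. Its T2 libraries were all below those of T1 and T0. VPS13B changed by -1.04 ± 0.15 in T2 minus T1 (adjusted p = 3.52e-05, edgeR) and by -0.94 ± 0.17 in T2 minus T0 (adjusted p = 0.0023). LRBA, a BEACH-domain protein of endosomal recycling, and SCFD2, of the SEC1 family, each fell by 0.61 in T2 minus T1, and EXOC6B, an exocyst subunit, by 0.42. EXOC4, another exocyst subunit of 736 kb, was at 10.5, 14.6 and 16.2 CPM in T2, against 10.3, 14.6 and 16.8 CPM in T1 (0.00 ± 0.11 on the log2 scale).

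In the ubiquitin and proteolysis list, 2 of 4 were lower and 0 higher in T2 than in T1, against 32 lower and 13 higher of 121 shorter genes. BTBD9, a putative adaptor of cullin ubiquitin ligases, was at 2.00, 3.30 and 4.44 CPM in T2, against 4.68, 6.30 and 9.91 CPM in T1, with no overlap (-1.0 ± 0.15, adjusted p = 4.9e-05, edgeR). PARK2, the mitophagy ubiquitin ligase parkin, was at 0.481, 0.952 and 1.48 CPM in T2, against 0.975, 1.94 and 2.80 CPM in T1 (-0.94 ± 0.22, adjusted p = 0.00246). PCSK5 and FBXL17 did not pass, at -0.46 and -0.19. In the list of extracellular and secreted proteins 2 of 6 were lower and 0 higher, against 8 lower and 2 higher of 46 shorter genes. VWA8 stands in that list for its von Willebrand domain but is known as a mitochondrial protein. VWA8 was at 46.3, 52.0, 42.9, 51.6 and 43.3 CPM in T0, at 71.1, 86.4 and 94.9 CPM in T1 and at 33.8, 44.7 and 60.7 CPM in T2. T1 was high and overlapped no other time point. VWA8 changed by -0.87 ± 0.10 in T2 minus T1 (adjusted p = 5.57e-06, edgeR). LAMA2, the laminin chain of the muscle basement membrane, fell by 0.36 ± 0.11 (adjusted p = 0.018), a call that ended with counts thinned to the smallest library total (-0.32, adjusted p = 0.0523).

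Transcription and chromatin regulators formed the largest list among the very long genes, and 4 of 16 were lower and 0 higher in T2 than in T1. Of the 166 shorter regulators, 74 were lower and 3 higher. SETBP1 (ENSECAG00000019793, chromosome 8, 63830530 to 64185761), a SET-binding nuclear protein, was at 5.16, 6.93, 7.52, 7.95 and 10.7 CPM in T0, at 6.13, 8.69 and 9.91 CPM in T1 and at 1.55, 3.05 and 4.98 CPM in T2. Every T2 library was below every T1 and T0 library. SETBP1 changed by -1.39 ± 0.18 in T2 minus T1 (adjusted p = 1.53e-05, edgeR) and by -1.28 ± 0.21 in T2 minus T0 (adjusted p = 0.00117). NFIA, a nuclear factor I protein, was at 4.30, 5.03, 5.26, 3.60 and 5.29 CPM in T0, at 3.33, 5.15 and 5.85 CPM in T1 and at 1.12, 2.72 and 3.48 CPM in T2. T2 was below T0 throughout, and m3 was the T1 library that met it. NFIA changed by -0.99 ± 0.16 in T2 minus T1 (adjusted p = 0.000107) and by -0.89 ± 0.18 in T2 minus T0 (adjusted p = 0.00432). THRB, a thyroid hormone receptor, fell by 0.79 ± 0.16 (adjusted p = 0.000688) and NR3C2, the mineralocorticoid receptor, by 0.56 ± 0.10 (adjusted p = 0.000349). ARID1B, EBF1, BCAS3, MLLT10, TCF4, DACH1, HDAC9, ZFPM2 and TAF4 had negative values between -0.44 and -0.05 that did not pass. SOX6, TCF12 and SMYD3 had values of 0.33, 0.19 and 0.30 and did not pass.

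RNA-binding and RNA-processing genes were lower in 3 of 6 cases and higher in 1, against 23 lower and 4 higher of 75 shorter genes. FTO, an RNA demethylase, was at 6.85, 8.72 and 10.3 CPM in T2, against 10.8, 12.1 and 14.6 CPM in T1, without overlap (-0.53 ± 0.10, adjusted p = 0.000682, edgeR). MSI2, a Musashi RNA-binding protein, fell by 0.71 ± 0.14 (adjusted p = 0.000798) and THADA, thought to act in tRNA modification, by 0.40 ± 0.10 (adjusted p = 0.00336). SND1 and CDKAL1, a tRNA-modifying enzyme, did not pass, at 0.19 and 0.21.

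**Figure D4:**
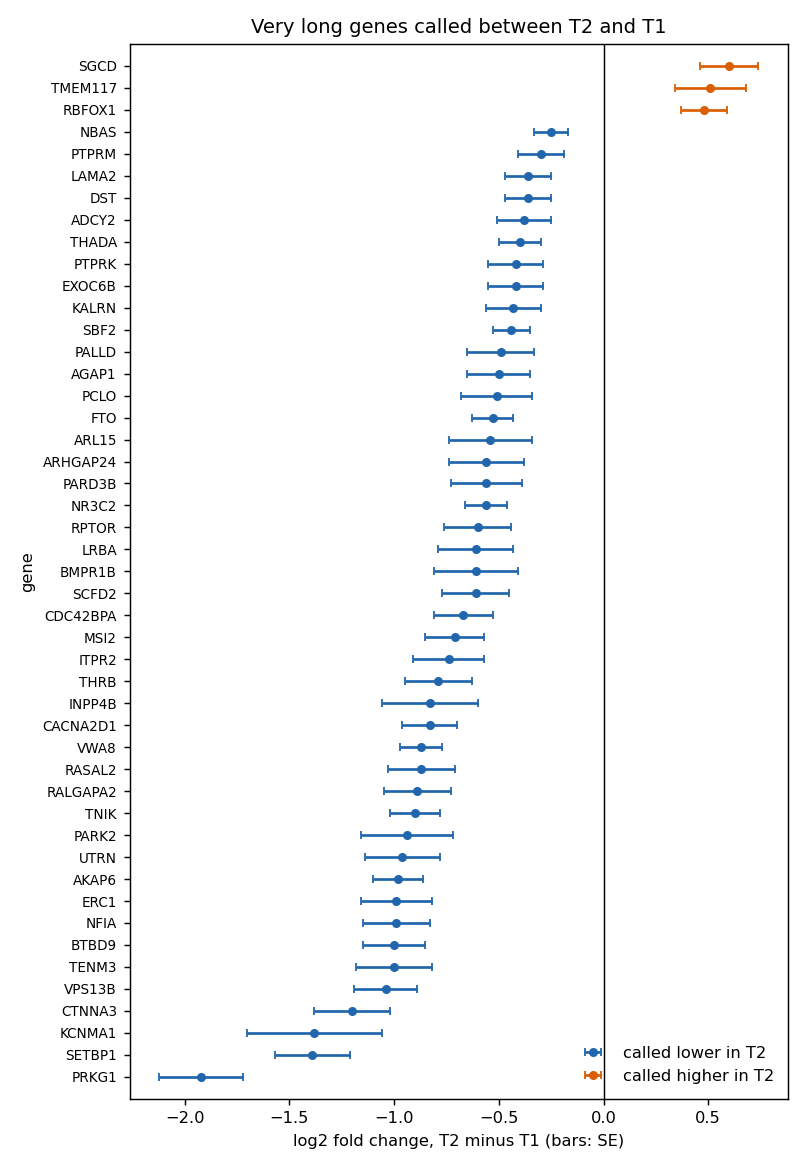
Log2 fold change in T2 minus T1, with SE bars, of the 47 very long genes called in that comparison. SGCD, TMEM117 and RBFOX1 lie right of 0 and the other 44 lie left of it, down to PRKG1 at -1.92.

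The list of mitochondrial and metabolic enzymes and transporters held no fall among its very long genes, with VWA8 placed in the extracellular list. Of its 7 members 0 were lower and 0 higher in T2 than in T1, and the median log2 fold change was 0.19. Of the 196 shorter genes in that list, 56 were lower and 24 higher, with a median of -0.15. PCCA, a subunit of mitochondrial propionyl-CoA carboxylase, was at 15.8, 18.5 and 24.6 CPM in T2, against 14.8, 16.8 and 19.3 CPM in T1. FARS2, the mitochondrial phenylalanyl-tRNA synthetase, ADK, adenosine kinase, and GMDS, a GDP-mannose dehydratase, had log2 fold changes of 0.25 ± 0.13, 0.22 ± 0.11 and 0.33 ± 0.15. ACSS3, a mitochondrial acyl-CoA synthetase, and DPYD, which degrades pyrimidines, lay at -0.30 ± 0.17 and -0.32 ± 0.15. SPATA5, an AAA-type ATPase, lay at 0.01 ± 0.17. MAD1L1, of the spindle checkpoint, and SPIDR, a recombination scaffold, made up the repair and division list and did not pass, at -0.26 and 0.04.

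The 12 lists covered 95 of the 119 very long genes, of which 40 were lower in T2 than in T1 (42.1%). Of the 24 in no list, 4 were lower (16.7%) and 0 higher. These were PCLO, a presynaptic scaffold, ARL15, a small GTPase, SBF2, a myotubularin-related protein, and NBAS, a Golgi-to-ER tethering factor, with log2 fold changes of -0.51, -0.54, -0.44 and -0.25. DUSP8, the longest as annotated, did not pass at -0.58 ± 0.25. Among shorter genes in the lists, falls made up 35.3% between 100 and 300 kb, 30.9% between 30 and 100 kb, 28.7% between 10 and 30 kb and 18.8% under 10 kb. Outside the lists the shares were 25.7%, 20.3%, 10.9% and 7.52% in the same order. In T2 minus T1 the share thus grew with span inside the lists and, up to 300 kb, outside them.

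Against the trend, 3 very long genes rose in T2 over T1. SGCD (ENSECAG00000016277, chromosome 14, 22298803 to 22666954) encodes delta-sarcoglycan, a membrane subunit of the dystrophin complex. SGCD was at 15.4, 18.9, 24.0, 29.7 and 21.4 CPM in T0, at 11.3, 15.2 and 20.5 CPM in T1 and at 17.5, 23.6 and 30.7 CPM in T2. T1 was the low time point, and T2 and T1 overlapped at their edges. SGCD changed by 0.60 ± 0.14 in T2 minus T1 (adjusted p = 0.00264, edgeR) and by -0.45 ± 0.16 in T1 minus T0 (adjusted p = 0.0915). RBFOX1 (ENSECAG00000012667, chromosome 13, 35934916 to 36269704) is a muscle and brain splicing regulator. RBFOX1 was at 29.9, 30.4, 31.1, 29.8 and 42.2 CPM in T0, at 21.7, 26.8 and 32.3 CPM in T1 and at 27.5, 37.0 and 50.8 CPM in T2. Most T2 libraries were above the whole of T1. RBFOX1 changed by 0.48 ± 0.11 in T2 minus T1 (adjusted p = 0.00205, edgeR). TMEM117 (ENSECAG00000025096, chromosome 6, 62354213 to 62776434), a membrane protein, was at 9.66, 15.5, 21.5, 17.7 and 9.17 CPM in T0, at 7.96, 10.4 and 15 CPM in T1 and at 10.5, 15.5 and 21 CPM in T2. The time points overlapped widely. TMEM117 changed by 0.51 ± 0.17 (adjusted p = 0.0258), a call that ended without T1 library m4 (adjusted p = 0.0561), T2 library m16 (0.0508) or T2 library m17 (0.0516), and its adjusted p ranged from 0.00193 to 0.0561 over 33 alternatives. The count of 3 rises became 7 without library m3. In that fit 16.1% of all genes tested were higher, against 12.6% with all libraries.

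**Figure D5:**
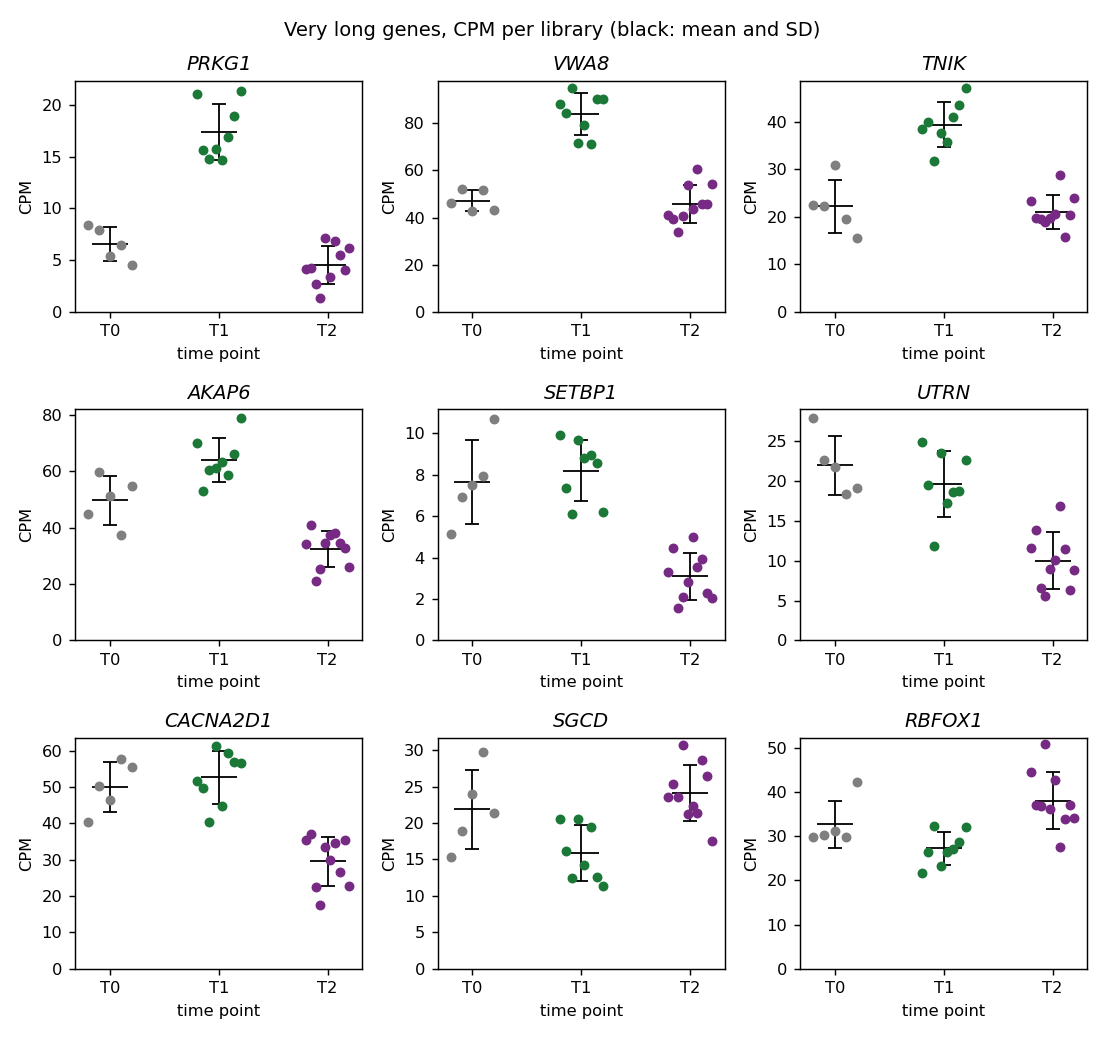
CPM of 9 very long genes in each library at T0, T1 and T2, with bars for the mean and SD. PRKG1, VWA8 and TNIK peak at T1, SETBP1, UTRN and CACNA2D1 are lowest at T2, and SGCD and RBFOX1 are lowest at T1.

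In T1 against T0, the very long genes were called about as often as genes in general. Of the 119, 4 were higher (3.36%) and 3 lower (2.52%), against 3.57% higher and 3.34% lower of all genes tested. Their median log2 fold change was 0.04, against -0.01 over the shorter genes. Spearman's rho between span and log2 fold change was -0.05 over 8839 genes, and the share of genes called lower lay between 2.35% and 3.80% in every span class. The 4 rises were PRKG1, VWA8, TNIK and ADCY2. In each of these every T1 library was above every T0 library, a separation found in 1.86% of all genes tested. VWA8 changed by 0.83 ± 0.13 (adjusted p = 0.00108, edgeR) and TNIK by 0.83 ± 0.14 (adjusted p = 0.00189). ADCY2 was at 124, 133 and 150 CPM in T1, against 89.6, 99.6, 73.8, 108 and 79.1 CPM in T0 (0.58 ± 0.16, adjusted p = 0.03). The ADCY2 call ended when m7 of T1 or m8, m10 or m13 of T0 was left out, with adjusted p up to 0.0977. Their T2 minus T1 values, which rest on the same T1 libraries, were -1.92 for PRKG1, -0.87 for VWA8, -0.90 for TNIK and -0.38 for ADCY2.

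Each of the 3 falls in T1 against T0 lost its call in some alternatives. ADAMTS12, a secreted metalloproteinase, was at 0.701, 1.92 and 2.51 CPM in T1, against 5.90, 4.32, 4.26, 2.44 and 2.36 CPM in T0 (-1.08 ± 0.29, adjusted p = 0.0248, edgeR). Its T0 values fell into 3 high and 2 low libraries, and the call ended without m8 (adjusted p = 0.105), m9 (0.0588) or m10 (0.0733). Of 7 fibroblast markers tested, 2 were lower and 0 higher in T1 than in T0, with summed levels of 79.7 to 200 CPM in T1 and 106 to 432 CPM in T0. The part of fibroblast RNA in the ADAMTS12 value was not tested. SOX6, a transcription factor that represses slow-fibre genes in mouse muscle, was at 3.42, 15.6 and 20.3 CPM in T1, against 16.3, 23.2, 22.8, 24.2 and 40.3 CPM in T0 (-0.82 ± 0.24, adjusted p = 0.0417). The lowest T1 value was that of m3 and the highest T0 value that of m13. The SOX6 call ended in 10 of 33 alternatives, with adjusted p up to 0.163. EHBP1, an adaptor of endocytic trafficking, was at 14, 15.6 and 18.1 CPM in T1, against 14.8, 19.1, 20.2, 21.8 and 26.6 CPM in T0 (-0.37 ± 0.12, adjusted p = 0.0494). The EHBP1 call lay close to the threshold and ended in 26 of 33 alternatives, with adjusted p up to 0.195.

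At the end of the season the very long genes were also shifted downward relative to untrained horses. In T2 against T0, 21 of the 119 were lower (17.6%) and 1 was higher (0.840%), against 9.30% lower and 6.73% higher of all genes tested. The median log2 fold change was -0.23, against 0.01 over the shorter genes, and 93 of the 119 values were negative (78.2%). For 9 of them (7.56%) every T2 library lay below every T0 library, against 1.72% of all genes tested. The slow-fibre list had 1 higher and 0 lower of 16 in this comparison, and the fast-fibre list 0 higher and 0 lower of 14. Of the smooth muscle and pericyte markers 0 were higher and 3 lower of 7 (median on the log2 scale -0.78), and of the fibroblast markers 0 were higher and 0 lower of 7, with a median of -0.70. The part of these cells in the T2 minus T0 values was not tested. Spearman's rho between span and log2 fold change was -0.30 over 8839 genes and -0.05 over the 119. The share lower was 17.6% at 300 kb or more, 20.9% between 100 and 300 kb, 13.4% between 30 and 100 kb, 7.11% between 10 and 30 kb and 2.60% under 10 kb. T2 minus T0 shares its T2 libraries with T2 minus T1 and its T0 libraries with T1 minus T0.

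The sarcolemmal and cytoskeletal list held 4 falls among its 8 very long genes in T2 against T0, those of CTNNA3, UTRN, DST and SYNE1. SYNE1 was at 63.0, 73.3 and 95 CPM in T2, against 92.2, 101, 102, 94.9 and 125 CPM in T0 (-0.44 ± 0.12, adjusted p = 0.0179, edgeR). DST changed by -0.43 ± 0.12 (adjusted p = 0.0221). Of the 64 shorter genes of that list 18 were lower and 1 higher. Very long genes had the larger share of falls for calcium handling (40% against 25%), extracellular proteins (16.7% against 10.9%) and ubiquitin (25% against 22.3%). They had the smaller share for signalling (16.7% against 20%), GTPase regulators (20% against 33.7%) and transcription (18.8% against 32.5%). So they did for adhesion (22.2% against 32%), trafficking (20% against 23.1%) and RNA processing (0% against 17.3%). Metabolic and repair genes had 0% against 2.55% and 8.86%. ADAMTS12 was at 0.863, 1.40 and 3.01 CPM in T2 and changed by -1.13 ± 0.28 (adjusted p = 0.0101), a call that ended without T0 library m8 (adjusted p = 0.0529). CDC42BPA changed by -0.73 ± 0.16 (adjusted p = 0.00576), with T0 values of 24.0, 23.9, 22.8, 21.5 and 28.3 CPM, all above T2. MCC, a regulator of cell proliferation and migration, changed by -1.20 ± 0.30 (adjusted p = 0.0109), HDAC9, a histone deacetylase active in muscle, by -0.58 ± 0.20 (adjusted p = 0.0443), and FAM117A by -0.57 ± 0.17 (adjusted p = 0.024). The calls of EXOC4 (adjusted p = 0.0493) and AGAP1 (adjusted p = 0.0383) ended in 24 and 13 of 33 alternatives.

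MAP2K5, the kinase that activates ERK5, was the very long gene that rose in T2 over T0. MAP2K5 (ENSECAG00000022411, chromosome 1, 124847734 to 125200048) was at 5.12, 5.60, 5.89, 6.25 and 5.45 CPM in T0, at 6.16, 6.65 and 8.15 CPM in T1 and at 5.67, 7.84 and 11.6 CPM in T2. Levels were lowest in T0, and 1 T2 library, m18, reached into the T0 range. MAP2K5 changed by 0.50 ± 0.13 in T2 minus T0 (adjusted p = 0.0146, edgeR), by 0.24 ± 0.11 in T2 minus T1 (adjusted p = 0.119) and by 0.26 ± 0.14 in T1 minus T0 (adjusted p = 0.262). The count of 1 rise became 4 without T0 library m12 and 2 without T1 library m3. In those fits 9.49% and 9.84% of all genes tested were higher, against 6.73% with all libraries.

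To see which genes differed from others of like span, a smooth trend of log2 CPM on span was removed within each library before the fit. The T2 minus T1 median of the very long genes was then 0.01, with 23 higher and 23 lower, and 26 of the original 47 calls were made again in the same direction. Of all genes tested, 13.6% were higher and 13.3% lower in that fit. Relative to genes of like span, PRKG1 was still lower at -1.65, SETBP1 at -1.13, CTNNA3 at -0.88 and CACNA2D1 at -0.54. SGCD, TMEM117 and RBFOX1 were higher at 0.88, 0.82 and 0.75. Genes that were not called without the removal and were called higher with it included CASK, a membrane-associated scaffold kinase, at 0.67, and the metabolic genes GMDS at 0.62, ADK at 0.52, FARS2 at 0.52 and PCCA at 0.47. These examples were chosen after their values were seen. Falls no longer called included those of DST at -0.10, LAMA2 at -0.05, ADCY2 at -0.10 and KALRN at -0.13. In T2 minus T0 the median was 0.01 after the removal, with 11 higher and 13 lower, against 6.53% higher and 7.79% lower of all genes tested.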

How the data were processed

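RNA from gluteus medius biopsies was sequenced with 50 single-end cycles, in 6 technical repetitions, per the series' text. Reads were processed with FastQC, STAR, RSEM and DESeq2, per the submitters' processing notes, whose versions, like the genome build, are not given in the sources used here. Deposited by the authors was 1 table of expected counts per gene, whose values are whole numbers, so rounding changed nothing. How the repetitions were combined is not stated. Symbols, biotypes and positions came from the annotation columns of the authors' deposited comparison tables, which cover 9628 genes, 8842 of them with a symbol. The tables of isoforms and the authors' own fold changes were not used. Span is end minus start and includes introns.

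Genes passing edgeR's filterByExpr (minimum count 10, minimum total 15) were kept, 11545 of 26991, holding 99.93% of counts, and 6643 genes had no count. They were scaled by TMM and fitted over all 23 libraries with 3 time points (edgeR 4.0.16, R 4.3.3, robust glmQLFit and glmQLFTest), with Benjamini-Hochberg adjustment and a threshold of 0.05. SE is the absolute log2 fold change divided by the square root of F. CPM use TMM-scaled library sizes, and log2 CPM a prior count of 2. CPM are relative to the sampled RNA. Levels are not compared between genes, since transcript lengths were not used. No 2 libraries held identical counts, and correlations between pairs of libraries (log2 CPM) were 0.909 to 0.980. The fit was tested on simulated data.

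The members and the function and marker lists were chosen with earlier results of these data known. Lists are described by counts and medians, with no test. Named genes were, per comparison, the 8 largest rises and falls among called genes with mean log2 CPM of at least 2, up to 8 called genes against the prevailing direction, up to 2 genes per list with the smallest p, the 3 longest, and a fixed panel of muscle and signalling genes. Other genes completing a list or a count were named after their values were seen. 1 gene of the panel is not reported here. Alternatives were median ratio size factors, no low-count filter, DESeq2 1.42.0, limma 3.58.1 voom with weights per sample, sex added to the model, the 2 time points alone, libraries m3 and m12 left out, span trend removed (lowess, span 0.3), limits of 200 and 500 kb, and each library left out. Thinning and leaving out 33 mitochondrial chromosome genes were added after the data had been seen.

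Besides the fibre lists, T2 minus T1 calls were 0 higher and 1 lower of 3 adipocyte, 0 and 0 of 7 endothelial, 1 and 1 of 7 smooth muscle and pericyte, 0 and 0 of 7 fibroblast, 0 and 1 of 6 macrophage, 1 and 0 of 3 Schwann cell and nerve and 0 and 1 of 3 satellite cell identifiers. No lymphocyte or erythroid marker was among the annotated genes tested.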

Additional observations from a re-analysis of the deposited data

Results flagged for a closer look

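For 27 very long genes given per library, and for the level of very long against shorter genes, each time point was checked for a library whose gap to its nearest neighbour was large against the range of the group on the log2 CPM scale. In 84 such groups, 9 were singled out, and chance alone singles out about 1 in 20. Library m3 was the low T1 library in 7 of the 9. It had 3.33 CPM of NFIA, 0.701 CPM of ADAMTS12, 14.6 CPM of CDC42BPA, 4.29 CPM of RALGAPA2, 3.68 CPM of ERC1 and 3.42 CPM of SOX6, and its mean log2 CPM of very long minus shorter genes was -0.51. The same library had a slow minus fast fibre score of 3.63, against -2.06 to 0.68 in the other T1 libraries, and the part of fibre type in these values was not tested. Library m13 was the high T0 library for RBFOX1, at 42.2 CPM. Library m14 was the low T2 library for EHBP1, at 13 CPM.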

How the results depend on the processing

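In T2 minus T1, falls among very long genes numbered 44, and 40 to 50 when each library was left out in turn. They numbered 23 with the span trend removed, 105 of 310 genes at a limit of 200 kb and 13 of 33 at 500 kb. Among all genes tested, falls made up 15.1%, 12.1% to 16.7% with each library left out and 13.3% with the span trend removed. Rises numbered 3, and 2 to 7 with each library left out (7 without m3), 8 under voom, 7 without m3 and m12, 23 with the span trend removed, 12 at 200 kb and 0 at 500 kb. In T2 minus T0, falls numbered 21, and 14 to 28 with each library left out, 13 with the span trend removed, 63 at 200 kb and 4 at 500 kb. Among all genes tested, falls made up 9.30%, 5.55% to 11.1% with each library left out and 7.79% with the span trend removed. Rises numbered 1, and 1 to 4 with each library left out (2 without m3, 4 without m12), 3 under DESeq2, 5 under voom, 5 without m3 and m12, 11 with the span trend removed, 5 at 200 kb and 0 at 500 kb. In T1 minus T0, rises numbered 4, and 3 to 6 with each library left out, 7 under voom, 14 at 200 kb and 0 at 500 kb. Among all genes tested, rises made up 3.57%, 1.75% to 3.95% with each library left out and 6.51% under voom. Falls numbered 3, and 0 to 4 with each library left out (0 without m9 or m10, 1 without m1, m2, m7, m11 or m13), 1 without the low-count filter, 6 with the span trend removed, 5 after thinning, 7 at 200 kb and 0 at 500 kb. Among all genes tested, falls made up 3.34%, and 1.22% to 3.77% with each library left out. That share was 1.99% without the low-count filter, 3.64% with the span trend removed and 2.75% after thinning. The medians of -0.27 and -0.23 both became 0.01 with the span trend removed, which the removal is built to do, and kept their sign in all other fits. For the other changes the cause was not tested.

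With the span trend removed, NBAS, called lower in T2 minus T1, was at 0.02 and not called. The other named values that changed sign had no call. In T1 minus T0 these were CDH13, -0.18 to 0.05 with each library left out (positive without m9), MAD1L1, at 0.01 without m12, PARD3B, at 0.05 after thinning and -0.14 to 0.02 with each library left out (positive without m13), and RYR2, at -0.02 with the span trend removed and -0.12 to 0.26 with each library left out. With the span trend removed, T2 minus T0 values were 0.02 for CDH13, 0.02 for DUSP8, 0.03 for FTO, 0.01 for LAMA2, 0.11 for SPIDR and 0.01 for THADA, and T2 minus T1 values were 0.18 for CDH13 and 0.01 for MAD1L1. SPIDR in T2 minus T1 was -0.06 to 0.00 without m2, m6 or m23. Depth limits the genes near 1 CPM. No paired analysis was possible because library numbers are not repeated across time points.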

Other observations

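A further 5 protein-coding genes of at least 300 kb carry no symbol in the deposited annotation and are given by identifier. ENSECAG00000015834, with 882 kb on the X chromosome (25524924 to 26406851), changed by -1.98 ± 0.19 in T2 minus T1 (adjusted p = 2.14e-06, edgeR's quasi-likelihood test) and by -1.52 ± 0.21 in T2 minus T0 (adjusted p = 0.000545). ENSECAG00000007173, with 438 kb on chromosome 5 (22378214 to 22816075), changed by -0.80 ± 0.15 in T2 minus T1 (adjusted p = 0.000495) and by -0.78 ± 0.17 in T2 minus T0 (adjusted p = 0.00583). The other 3 were not called in any comparison.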
